A study of Mus musculus with 4 samples.

Results

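The 10 genes described here are the mouse transforming growth factor beta (TGF-beta) ligands Tgfb1, Tgfb2 and Tgfb3, the receptors and co-receptors Tgfbr1, Tgfbr2, Tgfbr3, Eng and Acvrl1, and the target genes Tgfbi and Smad7. They were taken by symbol from gene tables of 27998 genes, where 10 of 10 were found, and each had at least 1 molecule counted in each of the 4 libraries. The study followed the endothelial lineage of the C57BL/6 mouse heart by droplet single-cell RNA sequencing. Mice carried Tie2-Cre, a recombinase driven by an endothelial and blood-lineage promoter, and a Rosa26 tdTomato reporter that stays on in every descendant of a recombined cell. Tomato-positive cells came from 1 library of E9.5 atrioventricular canal, 1 of E16.5 mitral valve and 2 of P0 mitral valve, with at least 60 embryos used per stage. All groups carry the same alleles and none was treated, so the comparisons are between cell classes and between stages. The labels do not say whether the P0 libraries came from separate litters or sorts, so the spread between them may be technical.

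TGF-beta ligands are secreted bound to their own propeptide and to latent TGF-beta binding proteins, and are released by integrins, thrombospondin or proteases. The free dimer binds the type II receptor TGFBR2, which recruits the type I receptor TGFBR1 and leads to phosphorylation of SMAD2 and SMAD3. In endothelium, endoglin (Eng) and the type I receptor ALK1 (Acvrl1) add a branch through SMAD1 and SMAD5 that also receives BMP9 and BMP10. In the atrioventricular canal, myocardial and endocardial TGF-beta signals are known to take part in the change of endocardial cells into cushion mesenchyme, which later becomes valve leaflet.

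Each library was clustered on its own with the 10 genes and 47 other listed pathway genes left out, so no class was defined by them, and clusters were named from marker lists. A class name below means cells like that type. The valve libraries held 3 classes that all 3 share: surface endothelial (68 cells at E16.5, 47 and 46 at P0), interstitial (161, 74 and 40) and capillary endothelial (62, 59 and 44). At E9.5 there were 87 surface endothelial cells and 104 cells of a cluster with raised endothelial and raised cushion markers, called cushion-forming. A cluster of 39 cells in P0 replicate 1 and one of 31 in P0 replicate 2 had mostly interstitial markers (11 and 10 of 14 raised, summing to 158 and 136 UMIs per 10000 against 150 and 132 in the interstitial class) but also cardiomyocyte genes among their leading genes, and stayed unnamed. They are left out of the interstitial values below, and their own values are given where they differ. Counting them as interstitial was an alternative added after the data were seen. The E9.5 library also held 508 cardiomyocytes among 1194 kept cells, a type that Tie2-Cre is not known to mark at large, and 243 erythroid cells. No tdTomato row was among the genes, which left the sort unchecked, and the E9.5 library is treated as canal tissue at large. The E9.5 library held 30819374 molecules (unique molecular identifiers, UMIs), with a median of 24564.5 per cell. The E16.5 library held 1021188 (median 1914.5) and the P0 libraries 1836768 (5029) and 1086623 (3934). The E16.5 library stood apart beyond its depth. Malat1, a nuclear RNA, stood at 3.22 to 7.93 UMIs per 10000 in its 3 valve classes and at 202 to 485 in those of P0. With 1 library each, E9.5 and E16.5 differ from P0 in stage and in library, and E9.5 also in dissected region, and these cannot be told apart.

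A level below is the gene's UMIs per 10000 UMIs of the summed cells of a class in a library, and its bracketed range is an exact 95% Poisson interval that covers counting error only. Where a class had 0 UMIs, the level it is said to allow is that of 3 UMIs. This lies under the upper end of the exact interval. The 3' counts are not corrected for transcript length, so levels are compared between classes for a gene and not between genes.

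The bases just upstream of 3 of these genes are shown because the ligands Tgfb1 and Tgfb2 and the co-receptor Eng were each highest in a different named class at E9.5. RefSeq promoter windows on GRCm38.p6 were matched for 6 of the 10 genes, and the 250 bases before the start are printed 5′ to 3′ on the gene's strand. Capitals mark matches on either strand to the GC box GGGCGG, the TATA box TATAAA, the E-box CACGTG or the ETS-type core AGGAAG, which do not overlap here.
Tgfb1, chr7:25686752-25687001, plus strand: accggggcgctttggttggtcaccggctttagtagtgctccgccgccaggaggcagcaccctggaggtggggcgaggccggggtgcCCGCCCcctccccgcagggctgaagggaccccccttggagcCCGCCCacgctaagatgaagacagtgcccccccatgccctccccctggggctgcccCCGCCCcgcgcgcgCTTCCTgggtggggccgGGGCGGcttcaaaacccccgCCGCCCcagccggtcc
Tgfb2, chr1:186705990-186706239, minus strand: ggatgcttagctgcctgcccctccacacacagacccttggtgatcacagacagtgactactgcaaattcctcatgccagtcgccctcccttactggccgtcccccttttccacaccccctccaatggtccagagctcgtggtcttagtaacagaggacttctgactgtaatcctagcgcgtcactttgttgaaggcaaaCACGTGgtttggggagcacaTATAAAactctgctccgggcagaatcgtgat
Eng, chr2:32646345-32646594, plus strand: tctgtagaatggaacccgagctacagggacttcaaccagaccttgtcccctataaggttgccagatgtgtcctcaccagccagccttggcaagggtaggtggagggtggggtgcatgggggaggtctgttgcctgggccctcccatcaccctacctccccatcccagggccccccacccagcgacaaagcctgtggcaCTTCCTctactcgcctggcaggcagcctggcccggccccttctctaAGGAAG
The Tgfb1 window was 75.2% G or C and held 5 GC boxes and 1 ETS-type core. The Tgfb2 window was 53.6% G or C and held a TATA box whose first base lies 31 bases before the start and an E-box 51 bases before it. The Eng window was 62.4% G or C and held 2 ETS-type cores, 52 and 6 bases before the start. Among 32851 windows of the same length, 32.74% held the GC box, 12.37% the TATA box, 6.02% the E-box and 29.48% the ETS-type core. These matches are letters in a window and no evidence of binding.

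**Figure D1:**
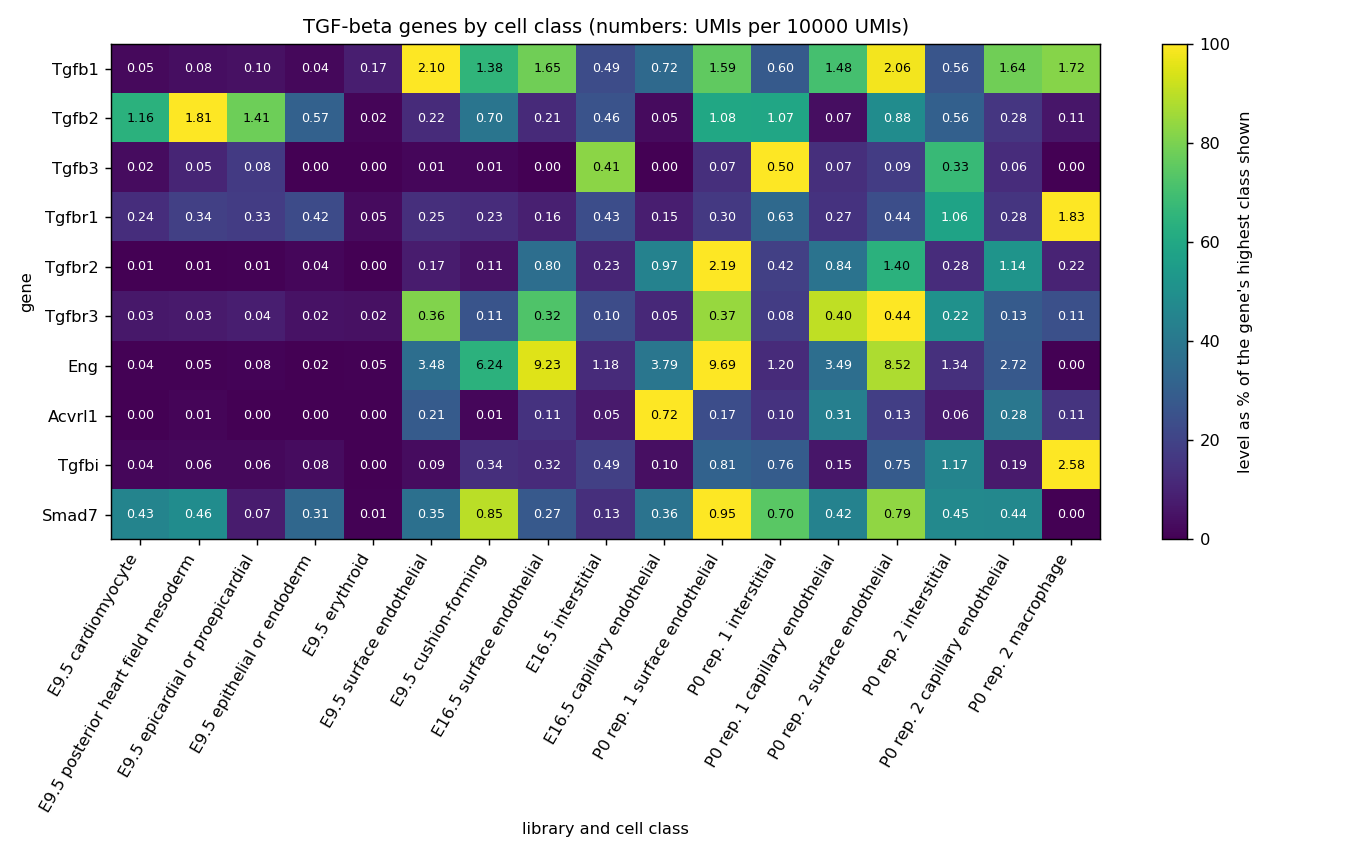
Level of each gene (rows, numbers in UMIs per 10000 UMIs) in 17 named class sums (columns), coloured as a percentage of that gene's own highest value among them. Colours compare along a row. Eng is bright in surface endothelium from E16.5 and in the E9.5 cushion-forming cells, and Tgfb3 in interstitial cells. Tgfb2 is brightest in E9.5 mesoderm (1.81), epicardial cells (1.41) and cardiomyocytes (1.16). Surface endothelium (1.08) and interstitial cells (1.07) of P0 replicate 1 come close to the last of these.

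Tgfb1, on chromosome 7 (25687002 to 25705077, GRCm38), was highest at E9.5 in surface endothelial and cushion-forming cells and in a cluster led by Pf4. At E9.5 its level was 2.10 (1.91 to 2.31) in surface endothelium and 1.38 (1.23 to 1.54) in cushion-forming cells. It was 0.0495 (0.0377 to 0.0639) in cardiomyocytes, 0.0798 in posterior heart field mesoderm and 0.0966 in epicardial cells, with 0.175 in erythroid cells. The other named classes of the canal therefore lay at or below the erythroid level, and surface endothelium and cushion-forming cells lay above it with intervals apart from all of them. The highest Tgfb1 level of any cluster was 6.10 (5.40 to 6.85) in an unnamed E9.5 cluster of 13 cells led by Pf4, in which 6 of 6 megakaryocyte markers and 8 of 10 macrophage markers were raised. Platelets are a known store of TGF-beta1.

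In the valve, Tgfb1 stood at 1.65 in surface endothelium at E16.5 and at 1.59 and 2.06 at P0. In interstitial cells it stood at 0.486 at E16.5 and at 0.599 and 0.557 at P0. The 3 interstitial values lie below the 3 surface values without overlap. Capillary endothelium lay between at E16.5 (0.717) and near the surface level at P0 (1.48 and 1.64), and the macrophages of P0 replicate 2 were at 1.72 (0.985 to 2.80). Interstitial cells were lower than surface endothelium by a log2 fold change of -1.52 (SE 0.30, edgeR adjusted p = 1.12e-05), in 3 of 3 libraries. The difference between capillary and surface endothelium was -0.36 (SE 0.27, edgeR adjusted p = 0.545) and did not pass.

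Tgfb2, on chromosome 1 (186622792 to 186705989, minus strand), had another pattern at E9.5. Its level was 1.81 (1.66 to 1.97) in posterior heart field mesoderm, 1.41 (1.17 to 1.69) in epicardial cells and 1.16 (1.10 to 1.22) in cardiomyocytes. Cushion-forming cells had 0.701 (0.596 to 0.819), epithelial cells 0.565 (0.372 to 0.822), surface endothelium 0.221 (0.162 to 0.295) and erythroid cells 0.0239. Among these neighbours the intervals of epicardial cells overlap those of mesoderm and of cardiomyocytes, and those of cushion-forming and epithelial cells overlap. The other neighbours stand apart.

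The 508 cardiomyocytes were not alike for Tgfb2. The 2 clusters with Rspo3 and Bmp2 among their leading genes, BMP2 being the myocardial signal of the canal, had 2.53 (2.35 to 2.73; 133 cells) and 1.97 (1.68 to 2.29; 29 cells). A cluster led by Acta1 and Tppp3 had 1.68 (58 cells). The clusters led by Myh6 (159 cells), by Nppa (79 cells) and by Myl2 and Nppa (50 cells), Nppa being a chamber gene, had 0.464, 0.331 and 0.261. The lowest of the first 3 clusters (interval 1.48 to 1.89) stood above the highest of the last 3 (0.400 to 0.535). Smad7 stood at 0.576, 0.521 and 0.505 in the first 3 clusters and at 0.403, 0.218 and 0.299 in the last 3. The Rspo3 cluster of 133 cells (interval 0.489 to 0.674) stood above all of the last 3. The Nppa cluster of 79 cells (0.154 to 0.301) stood below all of the first 3. The other Smad7 intervals overlap between the sets. These are clusters of 1 library, so no test between them was made.

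**Figure D2:**
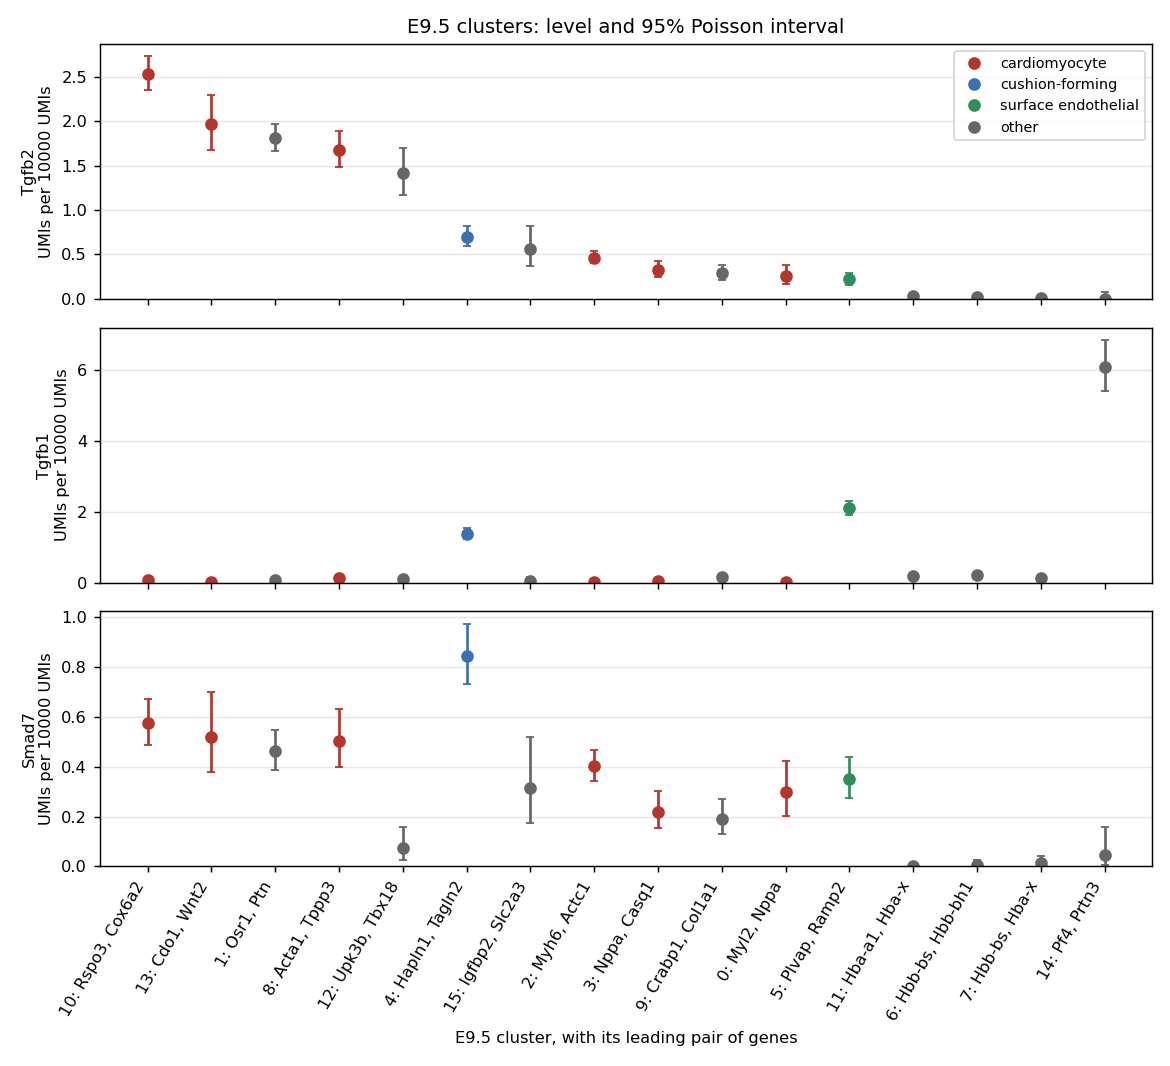
Tgfb2, Tgfb1 and Smad7 levels (UMIs per 10000 UMIs, points) with 95% Poisson intervals (bars) in the 16 clusters of the E9.5 library, ordered by Tgfb2. Tgfb2 is highest, at 2.53, in the Rspo3 cardiomyocyte cluster, Tgfb1 at 6.10 in the Pf4 cluster, and Smad7 at 0.846 in the cushion-forming cluster.

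Tgfb1 and Tgfb2 were found together in some single cushion-forming cells. Whether this was more often than the separate shares of cells with each ligand would give was not tested. With every E9.5 cell thinned to 5000 UMIs, which left no cell out, 14 of 104 cushion-forming cells had both ligands, 36 Tgfb1 alone, 14 Tgfb2 alone and 40 neither. Of 87 surface endothelial cells, 5 had both, 49 Tgfb1 alone, 2 Tgfb2 alone and 31 neither. Of 508 cardiomyocytes, 3 had both, 8 Tgfb1 alone and 181 Tgfb2 alone. Of 243 erythroid cells, 1 had both, 14 Tgfb1 alone and 2 Tgfb2 alone. As with levels, these shares are to be compared between classes for a gene and not between genes.

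In the valve, Tgfb2 stood in surface endothelium at 0.212 (0.0578 to 0.544) at E16.5 and at 1.08 and 0.878 at P0. Interstitial cells had 0.460 at E16.5 and 1.07 and 0.557 at P0, so the interstitial values overlap the surface values, and the difference was 0.15 (SE 0.37, edgeR adjusted p = 0.884). Capillary endothelium had 0.0512 at E16.5 and 0.0663 and 0.284 at P0, or 13 UMIs over 3 libraries against 56 in surface endothelium. Capillary cells were lower by a log2 fold change of -2.44 (SE 0.49, edgeR adjusted p = 2.14e-05). That call was lost without P0 replicate 1 (edgeR adjusted p = 0.233) and without the library block (0.0868).

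Tgfb3, on chromosome 12 (86056745 to 86079041, minus strand), was highest in interstitial cells. Its level there was 0.409 (16 UMIs) at E16.5 and 0.495 (19 UMIs) and 0.334 (6 UMIs) at P0. In surface endothelium it had 0 UMIs at E16.5, which allows a level of up to 0.159, and 2 UMIs in each P0 library (0.0675 and 0.0878). Interstitial cells were higher in 3 of 3 libraries, by a log2 fold change of 2.99 (SE 0.73, edgeR adjusted p = 6.46e-04). The call rests on few molecules, 41 against 4, and was lost without P0 replicate 1 (edgeR adjusted p = 0.0922) and under DESeq2 (adjusted p = 0.0633). At E9.5 cushion-forming cells and surface endothelium had 2 UMIs each, at levels of 0.0088 and 0.0096, and the highest named class was epicardial at 0.0845 (7 UMIs). Tgfb3 overlaps Ttll5 on the other strand by 5149 bases, and the counting strand is not given in the sources used here, so reads of the pair may not be separable.

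**Figure D3:**
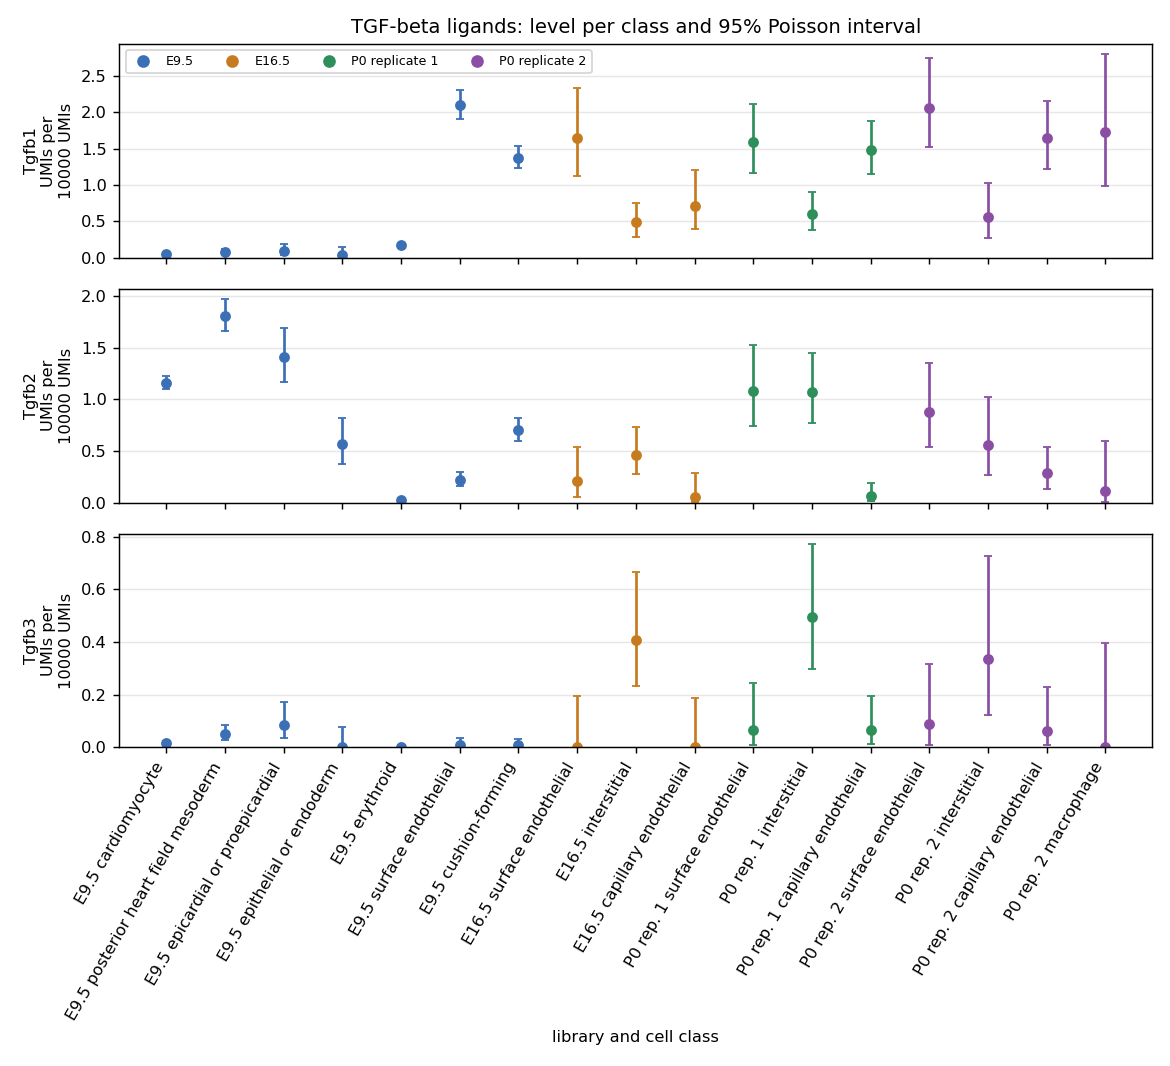
Levels of the 3 ligands (UMIs per 10000 UMIs, points) with 95% Poisson intervals (bars) in 17 class sums, coloured by library. In the valve libraries Tgfb1 is above 1.5 in the 3 surface endothelial sums and under 0.6 in the 3 interstitial sums, and Tgfb3 is above 0.3 only in the interstitial sums.

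Among the receptors, Tgfbr2 (chromosome 9, 116084293 to 116175360, minus strand), the type II receptor that binds the ligand first, was carried mostly by endothelium. Surface endothelium had 0.796 at E16.5 and 2.19 and 1.40 at P0, capillary endothelium 0.973, 0.839 and 1.14, and interstitial cells 0.230, 0.417 and 0.279. The 3 interstitial values lie below all 6 endothelial ones. Interstitial cells were lower than surface endothelium by -2.10 (SE 0.35, edgeR adjusted p = 8.24e-08), in 3 of 3 libraries. Capillary and surface endothelium differed by -0.53 (SE 0.30, edgeR adjusted p = 0.348), and their ranges overlap. Without the E16.5 library this value was -0.87 and passed (edgeR adjusted p = 0.047). At E9.5 surface endothelium had 0.168 (0.117 to 0.234) and cushion-forming cells 0.106 (0.0678 to 0.157), whose intervals overlap, while cardiomyocytes, mesoderm and erythroid cells lay between 0.0013 and 0.0069 and epithelial cells, with 2 UMIs, at 0.0419.

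Tgfbr1 (chromosome 4, 47353222 to 47414931), the type I receptor ALK5, was counted in every E9.5 class and in all 3 shared valve classes. In interstitial cells it stood at 0.435 at E16.5 and at 0.625 and 1.06 at P0, and in surface endothelium at 0.159, 0.304 and 0.439. Each library's interstitial value was higher, although the lowest interstitial and the highest surface value overlap across libraries. The log2 fold change was 1.30 (SE 0.44, edgeR adjusted p = 0.0283). This call did not hold under 8 of 11 alternatives, with adjusted p up to 0.253, and the unnamed interstitial-marked P0 clusters had 0.362 and 0.320. The macrophages of P0 replicate 2 had 1.83 (1.07 to 2.93). At E9.5 the named classes other than erythroid (0.0503) ran from 0.234 in cushion-forming cells to 0.419 in epithelial cells, and the intervals of cushion-forming cells, surface endothelium (0.250) and cardiomyocytes (0.240) overlap.

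Eng (chromosome 2, 32646595 to 32682669), the endoglin co-receptor whose loss causes hereditary telangiectasia in people, gave the smallest adjusted p of the 10 genes between valve classes. In surface endothelium it stood at 9.23 (7.91 to 10.7) at E16.5 and at 9.69 and 8.52 at P0. In capillary endothelium it stood at 3.79, 3.49 and 2.72, and in interstitial cells at 1.18, 1.20 and 1.34. The 3 named classes do not overlap, and the order surface, capillary, interstitial held in 3 of 3 libraries. Unnamed clusters of 37 and 26 cells in P0 replicate 1, left out of these classes, lay between its capillary and surface values. They had 7.84 (6.74 to 9.06) and 4.77 (3.90 to 5.78). Interstitial cells were lower than surface endothelium by -2.80 (SE 0.21, edgeR adjusted p = 1.67e-37), and capillary cells by -1.38 (SE 0.19, edgeR adjusted p = 2.17e-11). Without the library block the capillary call was lost (edgeR adjusted p = 0.17). In the macrophages of P0 replicate 2 Eng had 0 UMIs, which allows up to 0.323, below the interstitial level in the same library (interval 0.857 to 1.99). Eng overlaps Fpgs on the other strand by 61 bases.

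At E9.5 the order was the other way round. Cushion-forming cells had 6.24 (5.92 to 6.57) and surface endothelium 3.48 (3.24 to 3.75), against 0.0452 in erythroid cells and 0.0209 to 0.0845 in the other named classes. The difference between cushion-forming and surface cells at E9.5 was tested against that between interstitial and surface cells at P0, a test added after the data were seen. For Eng it gave 3.58 log2 units (SE 0.39, edgeR adjusted p = 8.75e-17), from 0.80 at E9.5 to -2.78 at P0. As fitted, Eng alone of the 10 genes passed this test, which 4.31% of 12062 genes passed. Tgfb2 (1.72, SE 0.57, edgeR adjusted p = 0.0564) and Smad7 (1.67, SE 0.57, edgeR adjusted p = 0.0715) did not with TMM scaling, and did with library totals (edgeR adjusted p = 0.0303 and 0.04). With the unnamed interstitial-marked P0 clusters counted as interstitial, Eng (3.60), Tgfb2 (1.74), Smad7 (2.13), Tgfbi (2.29) and Acvrl1 (-4.35) passed, with edgeR adjusted p of 9.64e-18, 0.0192, 0.00216, 0.00695 and 0.00105. Surface endothelial marker genes summed to 14.3 UMIs per 10000 in cushion-forming cells and 29.1 in E9.5 surface endothelium, and to 1.17 and 0.947 in P0 interstitial cells against 55.6 and 46.7. By the naming rule, the cushion-forming name needed at least 4 raised endothelial markers. A valve cluster with at least 4 raised endothelial and 4 raised interstitial markers was not called interstitial. The part of this rule and of the endothelial transcripts in the Eng value was not tested.

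Acvrl1 (chromosome 15, 101128522 to 101145336), which encodes the type I receptor ALK1, was counted sparsely. At E9.5 it had 43 UMIs in surface endothelium, a level of 0.206 (0.149 to 0.278), against 3 UMIs in cushion-forming cells, 0.0132 (0.0027 to 0.0387). In the valve the capillary level was 0.717, 0.309 and 0.284 and the surface level 0.106, 0.169 and 0.132. The capillary values were higher in 3 of 3 libraries, with a log2 fold change of 1.58 (SE 0.61, edgeR adjusted p = 0.0864) that did not pass, and that passed when the pathway genes were used in clustering (0.0241). The unnamed interstitial-marked P0 clusters had 0.543 (12 UMIs) and 0.192 (3 UMIs), against 0.104 and 0.0557 in the interstitial class. Tgfbr3 (chromosome 5, 107106570 to 107289629, minus strand), the betaglycan co-receptor that presents TGF-beta2, stood at 0.355 (0.279 to 0.446) in E9.5 surface endothelium and at 0.115 (0.0749 to 0.168) in cushion-forming cells, with intervals apart. In valve surface endothelium it stood at 0.318, 0.371 and 0.439 and in interstitial cells at 0.102, 0.0782 and 0.223, a difference of -1.48 (SE 0.61, edgeR adjusted p = 0.0895) that did not pass. It passed with no limit on mitochondrial UMIs (edgeR adjusted p = 0.0376), and the unnamed interstitial-marked P0 clusters had 0.362 and 0.128.

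**Figure D4:**
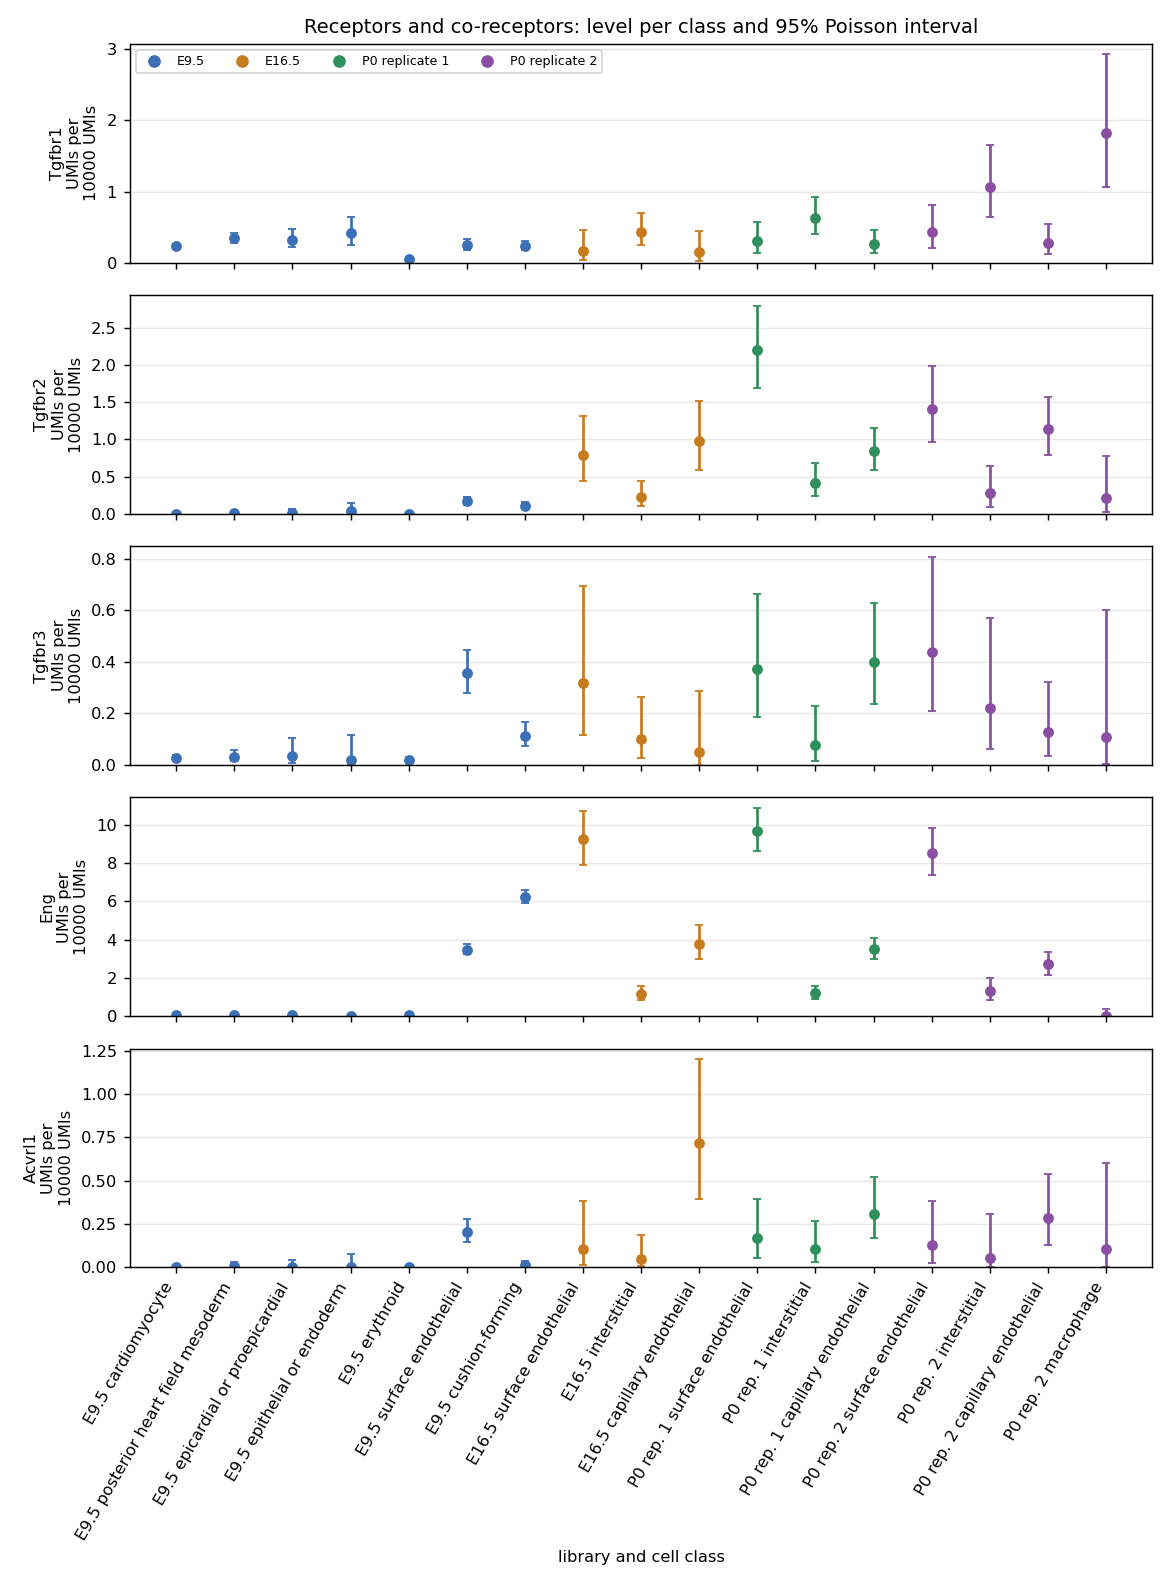
Levels of the 5 receptors and co-receptors (UMIs per 10000 UMIs, points) with 95% Poisson intervals (bars) in 17 class sums, coloured by library. Eng in cushion-forming cells (6.24) stands above E9.5 surface endothelium (3.48), while from E16.5 on the interstitial sums (1.18 to 1.34) stand below the surface sums (8.52 to 9.69).

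The target Tgfbi (chromosome 13, 56609523 to 56639562) encodes a secreted matrix protein named for its induction by TGF-beta. At E9.5 its level was 0.344 (0.272 to 0.429) in cushion-forming cells and 0.0864 (0.0512 to 0.137) in surface endothelium, with intervals apart, and 0.0411 in cardiomyocytes. An unnamed E9.5 cluster of 63 cells led by Crabp1 and Col1a1 had 0.37 (0.28 to 0.47), which overlaps the cushion-forming interval. In the valve, leaflet surface and interior overlapped. Interstitial cells had 0.486, 0.756 and 1.17 and surface endothelium 0.318, 0.810 and 0.746, a difference of 0.42 (SE 0.38, edgeR adjusted p = 0.576). The unnamed interstitial-marked P0 clusters were lower, at 0.136 (0.028 to 0.397) and at 0 UMIs (upper bound 0.236), and counting them as interstitial moved the difference to -0.10 (edgeR adjusted p = 0.926). Capillary endothelium had 0.102, 0.155 and 0.190, below all 6 of those values, and was lower than surface endothelium by -2.02 (SE 0.48, edgeR adjusted p = 7.29e-04). This call was lost without P0 replicate 1 (edgeR adjusted p = 0.142), without P0 replicate 2 (0.0549) and without the library block (0.0668). The highest level was 2.58 (1.66 to 3.84) in the macrophages of P0 replicate 2. Macrophage markers summed to 7.47 UMIs per 10000 in E16.5 interstitial cells, with none of the 10 at 0, against 0.104 and 0.111 at P0. Their part in the E16.5 interstitial levels of Tgfb1, Tgfbr1 and Tgfbi was not tested.

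Smad7, on chromosome 18, encodes the inhibitory SMAD that TGF-beta and BMP signals induce as feedback. Its level at E9.5 was 0.846 (0.731 to 0.975) in cushion-forming cells, 0.461 (0.386 to 0.547) in posterior heart field mesoderm, 0.428 in cardiomyocytes and 0.350 (0.275 to 0.441) in surface endothelium. Epicardial cells had 0.0724 and erythroid cells 0.005. Cushion-forming cells stood above every other E9.5 class; no other class's interval reached 0.731. After thinning, 27 of 104 cushion-forming cells had both Eng and Smad7 and 68 had Eng alone, against 6 and 63 of 87 surface endothelial cells. Whether cells had both more often than the separate shares of each gene would give was not tested. In the valve, surface endothelium had 0.265, 0.945 and 0.790, interstitial cells 0.128, 0.704 and 0.446, and capillary endothelium 0.358, 0.420 and 0.442. These ranges overlap, and neither interstitial cells (-0.57, SE 0.41, edgeR adjusted p = 0.447) nor capillary cells (-0.70, SE 0.41, edgeR adjusted p = 0.391) differed from surface endothelium past the threshold.

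Across the 3 valve libraries, 5 of the 10 genes passed between interstitial and surface endothelial cells, 2 higher (Tgfb3, Tgfbr1) and 3 lower (Tgfb1, Tgfbr2, Eng). Of all 10620 genes tested there, 13.1% passed, 7.01% higher and 6.12% lower. The median log2 fold change was -0.72 over the 10 genes and 0.03 over all genes. Between capillary and surface endothelium 3 of 10 passed, all lower (Tgfb2, Eng, Tgfbi), where 7.78% of genes passed, 3.86% higher and 3.92% lower. The median was -0.61 over the 10 genes and -0.004 over all genes. Each call needed an adjusted p under 0.05 and the same direction in every library.

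Some genes of the machinery that stores and frees latent ligand also differed between surface and interior. Of 12 latency and activation genes tested, 5 were higher in interstitial cells and 2 lower with edgeR, and 2 and 0 with DESeq2. Of all genes tested with edgeR, 7.01% passed higher and 6.12% lower. Thbs1 (thrombospondin 1, an activator of latent TGF-beta) had 690 UMIs in interstitial cells against 18, a log2 fold change of 4.96 (SE 0.29, edgeR adjusted p = 2.18e-62). The integrin subunits Itgb5 (3.08, SE 0.63, edgeR adjusted p = 2.12e-05) and Itgav (1.69, SE 0.41, 6.64e-04) were also higher. Lrrc32, which tethers latent ligand to the cell surface, had 1 UMI in interstitial cells and 14 in surface endothelium, a ratio of 0.0533 (0.00126 to 0.351). Between capillary and surface endothelium, 3.86% of all genes passed higher and 3.92% lower with edgeR. In capillary endothelium 6 of the 12 were lower than in surface endothelium with edgeR and 3 with DESeq2, and 0 were higher with either. The latent binding proteins Ltbp3 (-3.44, SE 0.61, edgeR adjusted p = 1.1e-06) and Ltbp1 (-2.06, SE 0.33, edgeR adjusted p = 2.28e-08) had the largest changes among them.

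Of 11 other TGF-beta target genes tested, 5 were higher and 2 lower in interstitial cells (3 and 1 with DESeq2). Of all genes tested there with edgeR, 7.01% passed higher and 6.12% lower. Ctgf was higher by 2.18 (SE 0.39, edgeR adjusted p = 9.44e-07) and Bgn (biglycan) by 2.09 (SE 0.19, edgeR adjusted p = 1.92e-26). Fn1 (fibronectin) was lower by -1.83 (SE 0.19, edgeR adjusted p = 5.55e-19). Of 6 partner receptors and decoys tested, the decoys Bambi (1.82, SE 0.38, edgeR adjusted p = 3.68e-05) and Vasn (2.78, SE 0.67, edgeR adjusted p = 5.49e-04) were higher (1 of the 6 with DESeq2). Of 12 SMADs and SMAD regulators tested, 0 passed with edgeR and 0 with DESeq2, and 4 had an unadjusted p under 0.05. In capillary against surface endothelium 2 of the 11 targets were lower, Bgn (-2.72, SE 0.25, edgeR adjusted p = 2.28e-24) and Fn1 (-2.58, SE 0.20, edgeR adjusted p = 2.23e-33), and 1 of the 6 partner receptors, the type I receptor Acvr1 (-1.36, SE 0.42, edgeR adjusted p = 0.0168). DESeq2 gave 2 and 0. Of all genes tested between capillary and surface endothelium, 3.86% passed higher and 3.92% lower with edgeR. Of the 12 SMADs and regulators 0 passed there with edgeR and 0 with DESeq2, and 5 had an unadjusted p under 0.05. Dissociation-induced genes moved with these groups. Of 14 tested, 11 were higher in interstitial cells, where their sum was 27.3 to 85.7 UMIs per 10000 against 12.4 to 24.5 in surface endothelium, and 5 were higher in capillary cells (11.8 to 43.0). Their part in Thbs1, Ctgf and the other counts was not tested. Interstitial markers summed to 16.8 to 19.5 UMIs per 10000 in surface endothelium, 1.77 to 4.39 in capillary endothelium and 107 to 150 in interstitial cells. Bgn and Ltbp3, lower in capillary than in surface endothelium, were also higher in interstitial cells, and the part of interstitial transcripts in the surface sums was not tested.

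Between E16.5 and P0, 0 of 10 genes passed in interstitial cells and 0 of 9 in surface endothelium with edgeR, and 0 with DESeq2, while 1 in each had an unadjusted p under 0.05. Of all genes, 11% passed in interstitial cells (10656 tested), 6.68% higher and 4.34% lower at E16.5. In surface endothelium 8.25% passed (10356 tested), 4.44% higher and 3.8% lower. Smad7 in interstitial cells was at 0.128 (0.0415 to 0.298) at E16.5 against 0.575 ± 0.182 (SD, n = 2) at P0, a log2 fold change of -1.73 (SE 0.71, edgeR adjusted p = 0.103). Tgfb2 in surface endothelium was at 0.212 against 0.979 ± 0.143 (SD, n = 2), a log2 fold change of -1.84 (SE 0.72, edgeR adjusted p = 0.097). Both E16.5 values lie below both P0 values. Eng was at 9.23 against 9.10 ± 0.83 (SD, n = 2) in surface endothelium, a difference of 0.39 (SE 0.30, edgeR adjusted p = 0.506). In surface endothelium the median log2 fold change of all genes was -0.32, and scaling by library totals in place of TMM moved it to -0.69 (in interstitial cells from 0 to -0.47). Under library totals the Smad7 value in interstitial cells passed (-2.24, edgeR adjusted p = 0.0139), and so did the Tgfb2 value in surface endothelium (-2.21, edgeR adjusted p = 0.0299), so both calls depend on the scaling. The Tgfb2 value also passed with no limit on mitochondrial UMIs (edgeR adjusted p = 0.0439). Of the other pathway genes, Itgb5 (1.38, SE 0.48, edgeR adjusted p = 0.0394) and Fn1 (0.86, SE 0.28, edgeR adjusted p = 0.0275) were higher and the protease inhibitor Timp3 (-0.93, SE 0.32, edgeR adjusted p = 0.0354) lower in E16.5 interstitial cells, 1 of 10 latency genes and 2 of 11 targets. In surface endothelium Emilin1 (1.17, SE 0.39, edgeR adjusted p = 0.0347) was higher, 1 of 12 latency genes. DESeq2 called none of these 4. Of 14 dissociation-induced genes, 2 were higher and 7 lower at E16.5 in interstitial cells and 4 lower in surface endothelium, and their part was not tested. The class differences themselves did not differ between E16.5 and P0 past the threshold for any of the 10 genes with edgeR, a test that 0.216% of 12062 genes passed.

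Between E9.5 and P0 surface endothelium, 5 of 9 genes tested passed, all lower at E9.5, where 30.7% of genes passed, 16.3% higher and 14.4% lower. E9.5 cushion-forming cells, which also had raised endothelial markers, are not in this comparison. Their levels of Eng (6.24) and Smad7 (0.846) lay above those of E9.5 surface endothelium (3.48 and 0.350). So did Tgfb2 (0.701 against 0.221) and Tgfbi (0.344 against 0.0864). Tgfbr2 (0.106 against 0.168) was lower, with overlapping intervals. What the choice of E9.5 cluster does to these calls was not tested. In the surface endothelial comparison the median was -1.31 over the 9 genes and 0.08 over all genes. Tgfbr2 was at 0.168 against 1.80 ± 0.56 (SD, n = 2), a log2 fold change of -3.42 (SE 0.39, edgeR adjusted p = 3.35e-16). Tgfbi was at 0.0864 against 0.778 ± 0.045 (SD, n = 2), a change of -3.15 (SE 0.53, edgeR adjusted p = 6.3e-08). Tgfb2 was lower by -2.15 (SE 0.43, edgeR adjusted p = 8.23e-06), Eng by -1.39 (SE 0.30, edgeR adjusted p = 4.77e-05) and Smad7 by -1.31 (SE 0.41, edgeR adjusted p = 0.00669). Tgfb1 was at 2.10 against 1.83 ± 0.34 (SD, n = 2) and differed by 0.21 (SE 0.31, edgeR adjusted p = 0.645). DESeq2 made 2 of these 5 calls, Tgfbr2 and Eng. Of 12 latency genes, 6 were lower, among them Ltbp3 with 0 UMIs at E9.5, which allows up to 0.0144, against 0.878 and 0.263 at P0, and Ltbp4 (-4.16, SE 0.40, edgeR adjusted p = 1.56e-23). Of 10 other targets, 6 were lower, among them Ctgf (-4.31, SE 0.79, edgeR adjusted p = 8.12e-07), and of 12 SMADs and regulators 3 were lower, led by Ski (-2.40, SE 0.41, edgeR adjusted p = 7.39e-08). Of 5 partner receptors and decoys 2 were higher and 2 lower, and the decoy Bambi was higher at E9.5 (2.41, SE 0.44, edgeR adjusted p = 9.8e-07). With DESeq2 the lists gave 3 of 12 latency genes, 2 of 10 targets, all lower, and 0 of 12 SMADs and 0 of 5 partners.

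E9.5 cushion-forming cells, set against P0 interstitial cells, had 6 of 10 genes past the threshold, where 23.2% of 10656 genes passed, 11.1% higher and 12.1% lower. The median was -1.05 over the 10 genes and 0.11 over all genes. The cushion-forming name needed at least 4 raised endothelial markers, and the part of this rule in the values of Eng and Tgfb1 was not tested. Eng (6.24 against 1.27 ± 0.10, SD, n = 2) was higher by 2.13 (SE 0.28, edgeR adjusted p = 1.65e-12) and Tgfb1 (1.38 against 0.578 ± 0.030, SD, n = 2) by 1.05 (SE 0.38, edgeR adjusted p = 0.0263). Tgfb3 had 2 UMIs against 25, a ratio of UMI shares of 0.0199 (0.00228 to 0.0797), with edgeR adjusted p = 3.2e-10. Tgfbr1 (-1.94, SE 0.47, edgeR adjusted p = 4.26e-04), Tgfbr2 (-1.96, SE 0.59, edgeR adjusted p = 0.00593) and Tgfbi (-1.60, SE 0.43, edgeR adjusted p = 0.00163) were also lower. DESeq2 made 2 of these 6 calls, Eng and Tgfb3. With the unnamed interstitial-marked P0 clusters counted as interstitial all 6 calls were kept, and Acvrl1 was also lower (-4.04, edgeR adjusted p = 4.17e-06). Of 10 latency genes, 7 were lower and 2 higher, with Thbs1 lower by -5.06 (SE 0.32, edgeR adjusted p = 2.35e-53) and Ltbp3 at 1 UMI against 77. Of 11 other targets, 6 were lower, among them Ctgf (-5.39, SE 0.49, edgeR adjusted p = 2.93e-26) and Bgn (-4.65, SE 0.29, edgeR adjusted p = 2.08e-56), and Fn1 was higher (2.25, SE 0.25, edgeR adjusted p = 4.66e-18). The inhibitory Smad6 had 576 UMIs against 15, a log2 fold change of 3.07 (SE 0.41, edgeR adjusted p = 1.59e-12), and was 1 of 3 SMADs and regulators that were higher, with 1 lower, of 12. With DESeq2 the lists gave 3 latency genes lower and 0 higher, 5 targets lower and 1 higher, and 1 SMAD or regulator higher. Dissociation-induced genes were lower in both E9.5 comparisons, 10 and 13 of 14, with edgeR (3 and 11 with DESeq2), at sums of 6.82 and 7.41 UMIs per 10000 against 23.5 to 85.7 at P0, and their part was not tested. The E9.5 and E16.5 comparisons use the same P0 libraries.

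**Figure D5:**
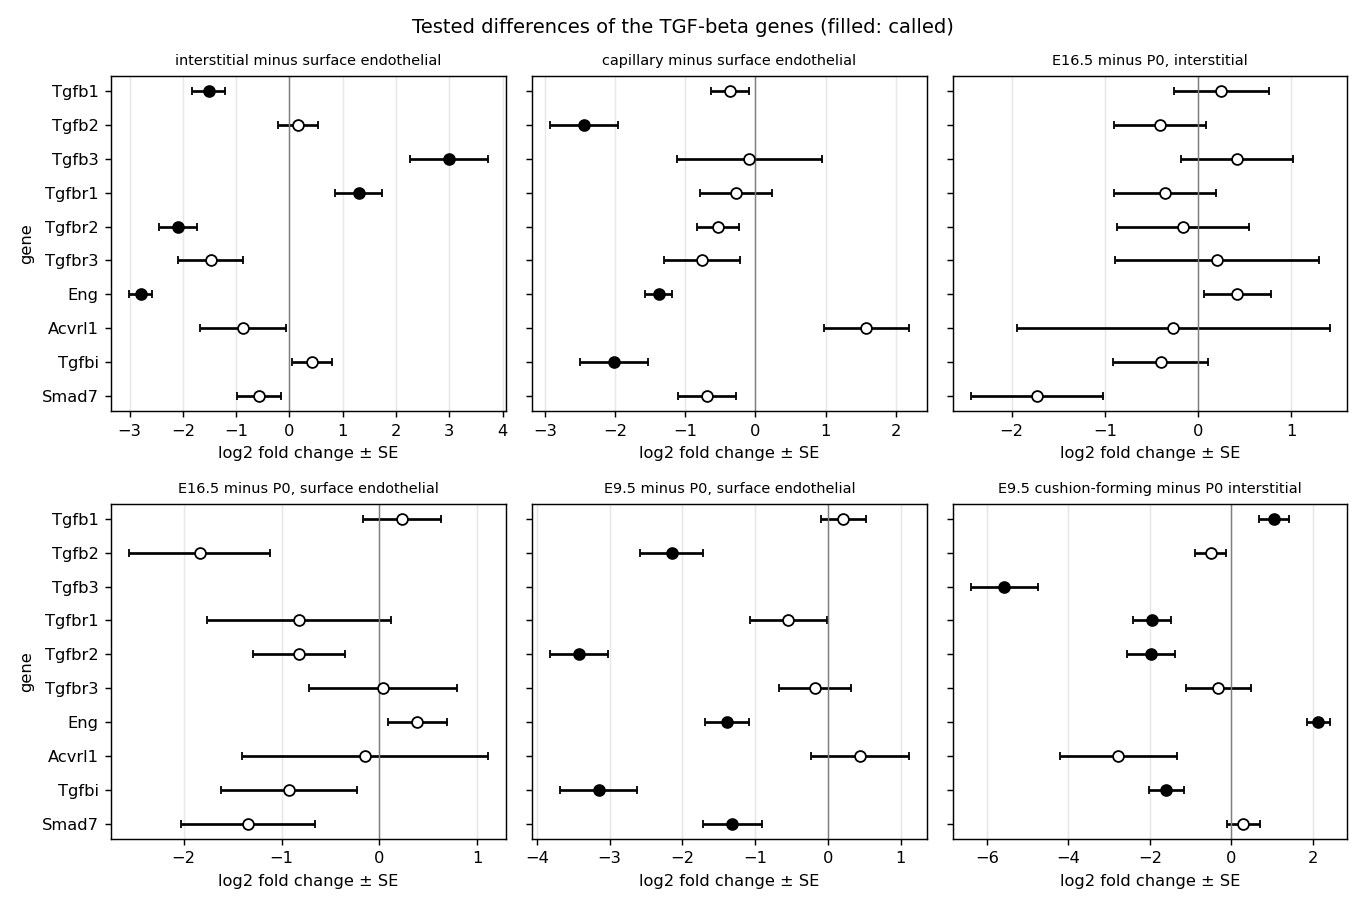
Log2 fold change (points) with standard error (bars) of the 10 genes in the 6 comparisons, filled where called. Eng is filled in 4 panels, at -2.80, -1.38, -1.39 and 2.13, and no gene is filled in the E16.5 against P0 panels. Tgfb3 was not tested in the surface endothelial stage comparisons, where it had under 10 UMIs.

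Over the 19 named class sums of the 4 libraries, the genes most like each member by Pearson correlation of log2(level + 0.1) among 8961 genes were read as a description, since sums of a library share its depth and free RNA. Tgfb1 was like Ppp1r13b (r = 0.901) and Nfatc1 (r = 0.897), the last a transcription factor of valve endocardium. Tgfb2 was most like Hspb11 (r = 0.833), and Tgfb3 most like Frmd6 (r = 0.898) and Thbs1 (r = 0.884). Tgfbr1 was most like Rnf103 (r = 0.910), Tgfbr2 most like Tm4sf1 (r = 0.949) and Tgfbr3 most like Foxo1 (r = 0.871). Eng was most like Vamp5 (r = 0.945), Acvrl1 most like Aplnr (r = 0.868), Tgfbi most like Trf (r = 0.930) and Smad7 most like Tacc2 (r = 0.917).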

How the data were processed

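The data are droplet single-cell 3' RNA libraries of sorted tomato-positive cells, with 1 library of E9.5 canal, 1 of E16.5 valve and 2 of P0 valve. Per the labels, tissue was digested for 5 or 10 min, serum at 10% stopped the digest, and a NextSeq 500 gave reads of 57 nt. Per the submitters' processing notes the authors used Cell Ranger 2.1.1 on mm10. The deposited values are whole-number UMI counts per gene and cell with no normalization; the sources used here give neither the counting strand nor the rule for keeping cells. The other deposited tables used hold gene identifiers with symbols and the P0 barcodes. The barcode lists of the P0 libraries hold 211 and 291 entries for matrices of 291 and 211 cells, so they appear exchanged, and 4 barcodes are in both; cells were used by column and barcodes were not used further. The age label of the E16.5 sample is mistyped and its stage was taken from the title.

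In the order E9.5, E16.5, P0 replicate 1 and P0 replicate 2, cells that failed were 0, 105, 2 and 27 with under 500 genes, 7, 65, 6 and 8 with over 10% mitochondrially encoded UMIs, and 5, 6, 1 and 5 called doublets by scrublet. A cell can fail more than 1 of these. This kept 1194, 311, 282 and 173. Each library was clustered with scanpy 1.11.5 (2000 variable genes, 20 components, 15 neighbours, Leiden resolution 1.0) without the 10 genes and 47 listed pathway genes, and clusters were named from 16 marker lists. A marker counted at 2-fold over the library's other cells, and a name needed 3 markers and a runner-up share of at most 0.75 times its own. The cluster names are rebuilt here and may differ from the authors'. At P0, 37, 39 and 26 cells in replicate 1 and 31 in replicate 2 stayed unnamed, and at E9.5 63 and 13.

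UMIs were summed per library and class, since cells are not replicates. Genes with at least 10 UMIs over the sums of a fit were tested with edgeR 4.0.16 (R 4.3.3), TMM scaling and the quasi-likelihood test, with Benjamini-Hochberg adjustment over all genes tested. Class comparisons used 9 sums with library as a block (4 residual degrees of freedom). Stage comparisons used 4 sums in 3 groups (1 residual degree of freedom), so the spread came from the P0 libraries, and the fit takes a single library to vary as they do. The added test of differences between stages used 11 sums in 8 groups (3 residual degrees of freedom) and treats sums of a library as independent. In each of these fits the prior degrees of freedom were infinite. Each gene's spread was thus taken from a trend over all genes of the fit. The p-values therefore do not measure a gene's own spread between libraries. DESeq2 1.42.0 was an alternative. The scripts were tested on simulated counts. Named genes are the 10 members and, per pathway list and comparison, up to 4 called genes with the largest change. Some genes that this rule selects are not reported here. The members, lists and naming rule were chosen with earlier results of these data known. Positions come from GENCODE vM21 (GRCm38).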

Additional observations from a re-analysis of the deposited data

Results flagged for a closer look

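The difference in Eng between cushion-forming and surface endothelial cells at E9.5 was not the same as that between interstitial and surface endothelial cells at P0. The log2 difference of differences was 3.58 (SE 0.39, edgeR adjusted p = 8.75e-17), with cushion-forming cells at 6.24 UMIs per 10000 against 3.48 in surface endothelium at E9.5, and interstitial cells at 1.20 and 1.34 against 9.69 and 8.52 at P0. The test was added after the data were seen. The cushion-forming cluster has Eng among its leading genes and carries surface endothelial markers at 14.3 UMIs per 10000 against 29.1 in E9.5 surface endothelium and 1.17 and 0.947 in P0 interstitial cells. Its name needed at least 4 raised endothelial markers. Valve clusters with at least 4 raised endothelial and 4 raised interstitial markers were not called interstitial, and the part of this rule was not tested. The log2 difference of differences was 3.70 with scaling by library totals and 3.59 without the filter on low counts. It was 3.60 with the unnamed interstitial-marked P0 clusters counted as interstitial. It was 3.37 and 3.72 when either P0 library was left out, which are values with no test. The E9.5 side rests on 1 library of another region, and stage, region and library cannot be told apart.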

How the results depend on the processing

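The count of genes that passed between interstitial and surface endothelial cells was 1394, against 676 with DESeq2 and 575 with no library block (no replicate block), and leaving out 1 library gave 649 to 1431. For capillary against surface endothelium it was 826, against 352 with DESeq2 and 174 with no library block, and 389 to 889 when 1 library was left out. DESeq2 gave 367 in place of 1175 (E16.5 against P0, interstitial), 259 in place of 854 (surface endothelium), 413 in place of 3178 (E9.5 against P0, surface endothelium) and 437 in place of 2472 (cushion-forming). With library totals in place of TMM the share of higher calls went from 60.6% to 28.27% and from 53.86% to 29.47% for E16.5 against P0, and from 47.94% to 58.54% for cushion-forming cells. With DESeq2 these 3 shares were 71.39%, 74.9% and 18.08%, and 35.59% in place of 53.18% for E9.5 surface endothelium. Counting the unnamed interstitial-marked P0 clusters as interstitial, added after the data were seen, gave 1767 (E16.5 against P0, interstitial) and 3838 (cushion-forming). The other 37 recomputed counts stayed within 1.5 times. For single genes, 615 recomputed values kept their side of the threshold or stayed within their standard error where no test was possible, 23 lost a call, 14 gained one and 3 untested values moved by more than it. No called value changed sign. Without the library block 4 calls were lost, Tgfbr1 between interstitial and surface cells (edgeR adjusted p = 0.153) and, between capillary and surface cells, Eng (0.17), Tgfb2 (0.0868) and Tgfbi (0.0668). Acvrl1 between cushion-forming and P0 interstitial cells passed at Leiden resolution 0.5 (edgeR adjusted p = 0.00106). No paired analysis was possible because E9.5 and E16.5 have 1 library each in the stage comparisons, and leaving out a P0 library there leaves no residual degrees of freedom, so those are values with no test. Depth limits Acvrl1, Tgfb3 and Tgfbr3 most, with 108, 98 and 225 UMIs over the named classes. The cause of these shifts was not tested.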
